A study of Mus musculus with 16 samples.

Results

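LS against ES in control cells is the comparison described here, in mouse embryonic stem cells whose chromatin accessibility was measured by ATAC-seq. ATAC-seq marks open chromatin by where a transposase can insert adaptors into DNA. The cells carried the genotype FOXD3-iKO, were grown in medium labelled L2i, and were sorted by DAPI staining of DNA content into 4 fractions labelled G1, ES, LS and G2. The compared groups are the LS fraction and the ES fraction of cells treated with EtOH for 24 h, with 2 libraries in each, so 4 of the series' 16 libraries. The EtOH cells carry the FOXD3-iKO genotype too, so they are not wild-type cells. The other treatment, 4HT for 24 h, is the one that the series' title links to FOXD3 depletion; its LS and ES fractions share no library with the EtOH ones and are set beside them as a second view of LS against ES that also carries the treatment. The labels do not spell out ES and LS, and they give neither the gates of the sort nor whether the 2 libraries of a group came from separate cultures.

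In mammalian cells the genome is copied in a fixed order during S phase. Gene-dense, transcribed chromatin is generally copied early, and gene-poor chromatin, much of it at the nuclear periphery, is generally copied late. DNA content rises through S phase, so a sort on DAPI orders cells by how much of the genome they have copied. The deposited tables hold no measure of DNA copy number or of replication time, and more copies of a locus cannot be told apart from more accessibility per copy.

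The 2 libraries of a group are pooled in 1 deposited column, so a group has 1 value per interval and a difference between LS and ES in EtOH has no replicate check. The values are coverage scaled to the size of the library. The smallest value in a column is what 1 read is worth, and each value is given here as a multiple of it, called its level. The values behave as a mean over covered bases, so a level of 1.0 can stand for several reads that do not overlap. Levels are not scaled to depth, so a difference between 2 columns also holds their difference in depth. The implied depth was 8.17 M reads in EtOH LS and 8.38 M in EtOH ES, and 11.1 M in 4HT LS and 9.75 M in 4HT ES. The EtOH pair was thus nearly even, with LS the shallower, whereas in 4HT the LS column was the deeper. Of 127646 accessible regions, 72.7% held a read in EtOH LS and 72.4% in EtOH ES. A region was compared when it held a read in all 8 columns of the series and its mean level was at least 2, which 11010 regions met. The second table holds 38053 windows of 5000 bp around transcription start sites (TSS), and 15323 of them were compared at a mean level of at least 1.3.

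The windows of 10 genes that mark embryonic stem cells were checked against those of 10 fibroblast genes, since feeder cells could be present. Levels at the 10 stem cell windows ran from 1.23 to 3.33 in LS, with a median of 1.97 and a sum of 21.2, and from 1.0 to 2.85 in ES, with a median of 1.88 and a sum of 18.5. Pou5f1, the core pluripotency factor, was the highest of them in LS at 3.33. Of the fibroblast genes 8 had a window, with levels from 1.0 to 1.496 in LS (sum 9.94) and from 1.0 to 1.35 in ES (sum 9.54). The window of Foxd3 itself had levels of 1.27 in EtOH LS and 1.63 in EtOH ES, and of 1.56 in 4HT LS and 1.54 in 4HT ES. A 5000 bp accessibility window does not test whether the gene was deleted.

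LS differed from ES along gene density, and also along distance to gene starts and level, given below. LS cells had relatively more accessibility signal in gene-poor stretches of the chromosomes, and ES cells had relatively more in gene-rich ones. To see this, the autosomes were divided into bins of 1 Mb and each bin was classed by the number of TSS windows it holds: gene-poor bins held at most 10 and gene-rich bins over 20. In EtOH LS the 2010 compared regions of gene-poor bins had a median log2 level 0.02 above that of the 5974 regions of gene-rich bins. In EtOH ES the same gene-poor regions stood 0.17 below the gene-rich ones (poor minus rich -0.17). EtOH G1 and EtOH G2 lay between LS and ES, at -0.12 and -0.08.

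The 4HT columns, made from other libraries, gave the same order at both ends. Poor minus rich was 0.02 in 4HT LS and -0.13 in 4HT ES, against -0.07 in 4HT G1 and -0.08 in 4HT G2. At TSS windows, with 1808 in gene-poor and 9486 in gene-rich bins, EtOH LS was at 0.05 and EtOH ES at -0.05, and 4HT LS was at 0.04 and 4HT ES at -0.05. In each treatment and in each table LS was therefore the highest of the 4 fractions and ES the lowest. In depth, LS was the shallowest of the EtOH columns and the deepest of the 4HT ones, and the part of depth in this order was not tested.

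**Figure D1:**
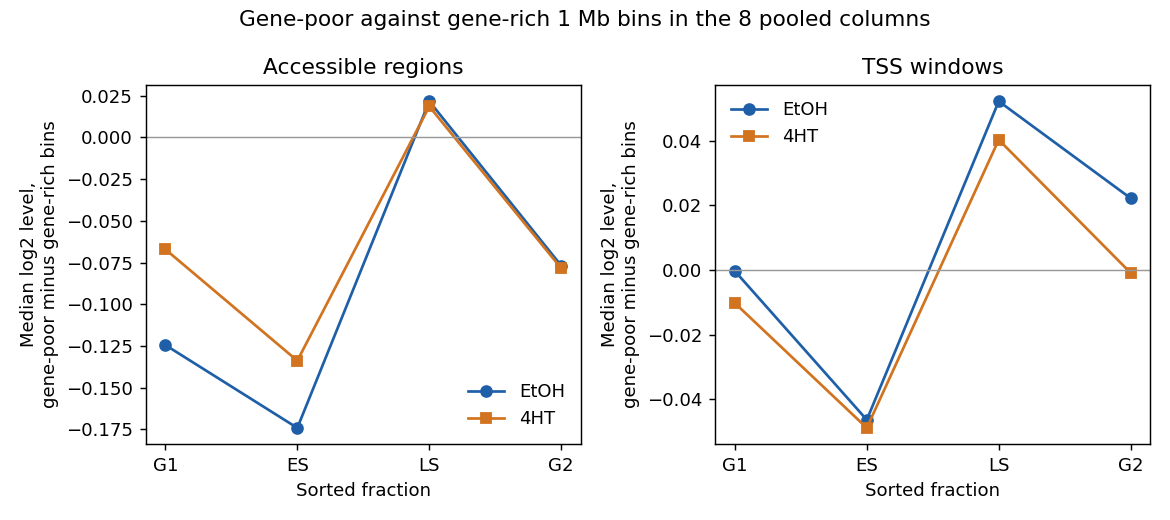
Median log2 level in gene-poor 1 Mb bins minus that in gene-rich bins (y axis, log2) for each of the 8 pooled columns, by sorted fraction (x axis), with EtOH as circles and 4HT as squares, at accessible regions (left) and TSS windows (right). LS is the highest point and ES the lowest in every line.

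The difference grew smoothly as genes thinned out. Over bins with 0 to 5, 6 to 10, 11 to 20, 21 to 40 and over 40 TSS windows, the median log2 difference at accessible regions, LS minus ES in EtOH, was 0.31, 0.28, 0.21, 0.12 and 0.11. In 4HT the same classes were at 0.48, 0.45, 0.38, 0.33 and 0.33, falling in the same way up to the last class. These values were higher throughout, and LS was the deeper column in 4HT. TSS windows ran from 0.10 in the poorest class to -0.01 in the densest in EtOH, and from 0.22 to 0.10 in 4HT. In the poorest class the median level in EtOH was 2.50 in LS and 2.03 in ES. In the densest class it was 2.64 in LS and 2.46 in ES, so the ES column changed more along the classes than the LS column did.

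Detection showed the same slope between LS and ES without using levels. Of the regions with a read in EtOH LS or EtOH ES but not in both, 20006 were read in LS only and 19719 in ES only, which is an LS-only share of 50.4% (95% Wilson interval 49.9 to 50.9%). That even split hid a slope: the LS-only share was 53.2% (52.1 to 54.4%) in the poorest bins, 52.5%, 50.3% and 46.1% in the next 3 classes, and 45.0% (43.0 to 47.0%) in the densest. The 4HT shares were 60.7% in the poorest bins and 54.3% in the densest, with a total of 57.6%. In 4HT the LS column was the deeper, and the part of depth in these shares was not tested. The Wilson intervals cover counting error only, and neighbouring regions are not independent. Detection did not place LS highest of the EtOH fractions. The share of regions read in gene-poor bins over that in gene-rich bins was 0.839 in EtOH LS and 0.793 in EtOH ES. It was 0.842 in EtOH G1 and 0.859 in EtOH G2. In 4HT, LS was the highest at 0.872 and ES the lowest at 0.811.

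**Figure D2:**
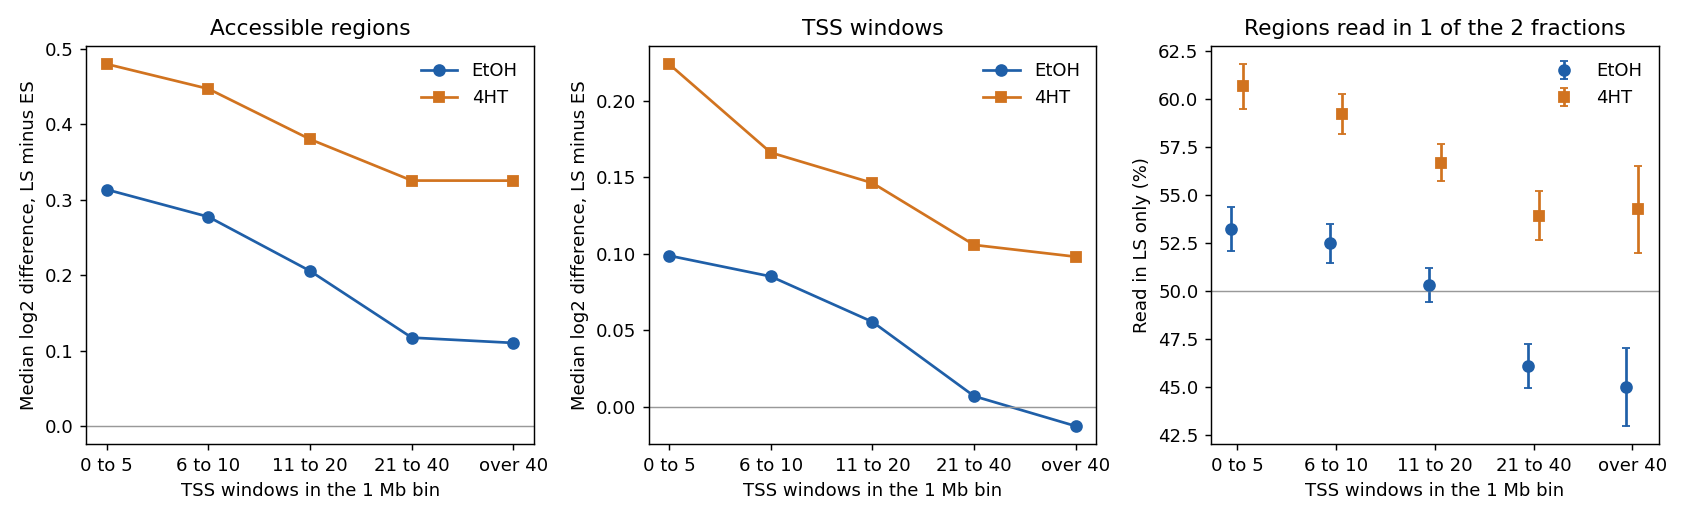
Median log2 difference, LS minus ES, at accessible regions (left) and TSS windows (middle), and the percentage of singly read regions that were read in LS only (right, bars are 95% Wilson intervals), by the number of TSS windows in the 1 Mb bin (x axis), for EtOH (circles) and 4HT (squares). The EtOH values fall along the classes, to 0.11, -0.01 and 45.0% in the densest bins.

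The slope was present on nearly every chromosome. In EtOH the median difference, LS minus ES, was greater in gene-poor than in gene-rich bins of the same chromosome for 18 of 19 autosomes at regions, with a median gap of 0.19, and for 18 of 19 at TSS windows, with a median gap of 0.10. The exception was chromosome 11 at regions (-0.07) and chromosome 16 at windows (-0.01). In 4HT the counts were 19 of 19 and 16 of 19. In EtOH, chromosomes 1 and 3 had the highest autosomal medians at regions (0.27 each, with 0.42 and 0.38 in 4HT). Chromosome 19, with 15.74 TSS windows per Mb, had the lowest (0.07, with 0.28 in 4HT). The densest, chromosome 11 at 24.15 per Mb, was at 0.15 in EtOH and 0.36 in 4HT. In 4HT the highest was chromosome 18 at 0.49 and the lowest chromosome 9 at 0.25. Across the 19 autosomes the median difference at regions and the number of TSS windows per Mb had a Pearson r of -0.43 and a Spearman rho of -0.52 in EtOH. Over 816 single bins of 1 Mb the same relation was much weaker, with r -0.09 and rho -0.14 in EtOH and r -0.08 and rho -0.06 in 4HT. These are descriptions, since all chromosomes and bins share the same 2 columns of a treatment.

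Distance to a gene start gave a matching picture at its far end. The 422 compared regions over 100 kb from any TSS window centre had a median difference, LS minus ES, of 0.40 in EtOH and 0.54 in 4HT. The 5416 within 1 kb stood at 0.16 and 0.37, the 2313 from 1 to 10 kb at 0.14 and 0.31, and the 2859 from 10 to 100 kb at 0.18 and 0.37. At the distant regions 39.8% were higher in LS by at least 1.5-fold in EtOH and 9.01% were lower. Density and distance are linked, but the density slope was there on both sides of 1 kb. Near gene starts it ran from 0.27 in the poorest bins (130 regions) to 0.10 in the densest (1383 regions), and beyond 1 kb from 0.34 (482 regions) to 0.11 (902 regions).

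Differences between LS and ES also moved with how accessible an interval was. With the compared regions cut into 5 equal classes by mean level, the EtOH median difference was 0.09 in the lowest and 0.24 in the highest class, and the 4HT one 0.27 and 0.46. TSS windows went through 0 along the same scale in EtOH, at -0.02 in the lowest and 0.12 in the highest class, with 4HT at 0.04 and 0.26. The 99th percentile of region level was 4.94 in EtOH LS and 4.31 in EtOH ES, and 6.06 in 4HT LS and 4.68 in 4HT ES. The poorest bins had both the lower median of mean level (2.47, against 2.68 in the densest) and the larger difference.

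**Figure D3:**
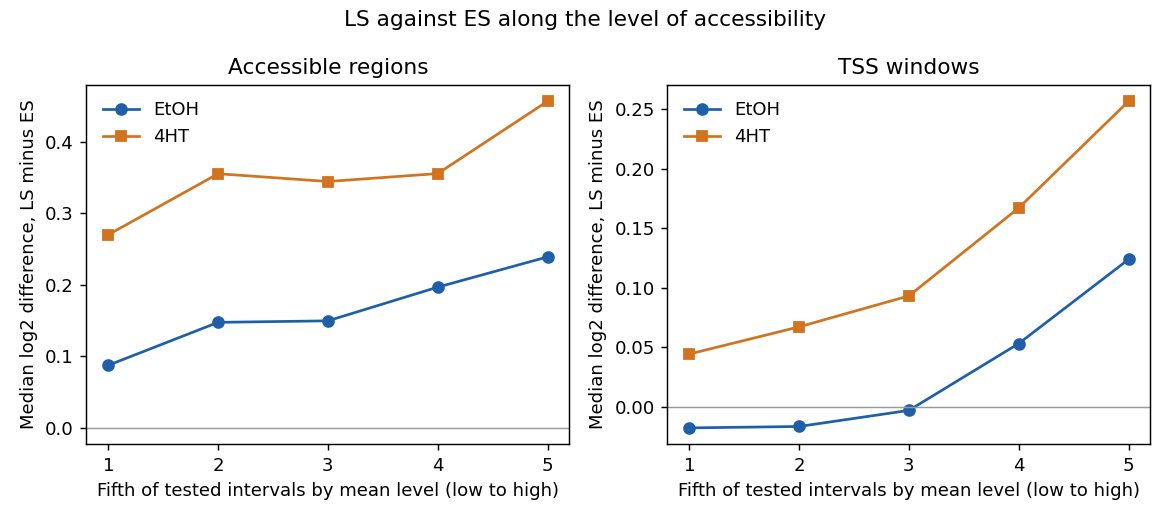
Median log2 difference, LS minus ES, in 5 equal classes of the compared intervals by mean level over the 8 columns (x axis, low to high), at accessible regions (left) and TSS windows (right), for EtOH (circles) and 4HT (squares). The EtOH lines end at 0.24 for regions and 0.12 for windows in the highest class, above their values of 0.09 and -0.02 in the lowest.

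Taken over all compared regions, levels were somewhat higher in LS than in ES. The median difference in EtOH was 0.17 (SD over regions 0.67), and 6678 regions, or 60.7%, were above 0. At TSS windows the median was 0.02 (SD over windows 0.30) with 53.3% above 0. By a fold of 1.5, with no test, 2796 regions were higher in LS (25.4% of those compared) and 1445 were lower (13.1%). In data simulated with the spread among the pooled columns, 34.6% of unchanged regions passed this fold in one direction or the other. For unchanged windows the share was 8.67%, so passing the fold does not by itself show a change. In 4HT, 35.6% were higher and 7.49% lower, around a median of 0.36. There the LS column was the deeper (11.1 M reads against 9.75 M), and the part of depth in the 4HT values was not tested. With the EtOH median set to 0 the regions split almost evenly, with 1979 higher and 2070 lower, so the counts in each direction depend on where 0 is set. At windows, 597 were higher (3.9%) and 278 lower (1.81%) in EtOH, and 6.61% were higher and 0.881% lower in 4HT. After centring, 514 windows were higher and 328 lower.

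Single intervals repeated weakly between the treatments. Across all compared intervals the EtOH and 4HT differences had a Pearson r of 0.07 at regions and 0.12 at windows, which is a description across intervals of the same columns. Of the 2796 regions higher in EtOH LS, 40.6% were past the same fold in 4HT, where 35.6% of all regions were. For the 1445 lower ones it was 10.8%, against 7.49% of all. The 597 windows higher in EtOH LS did better, with 13.4% past the fold in 4HT against 6.61% of all, a count of 80. Of the 278 lower windows 5, or 1.80%, were lower by the fold in 4HT too, against 0.881% of all. Most regions and windows past the fold in EtOH were thus not past it in 4HT, and the named loci below are given with all 4 columns.

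The 12 named windows with the largest excess in EtOH LS had differences of 1.14 to 1.33. Of these 9 were above 0 in 4HT, as were 65.9% of all compared windows, and 3 were past 1.5-fold there (6.61% of all): Arrdc4, which encodes an arrestin-domain adaptor protein, Soga3 and Efcab14, an EF-hand protein gene. Arrdc4, in a gene-poor bin with 7 TSS windows, had levels of 4.42 in LS and 1.92 in ES in EtOH, and of 2.99 in LS and 1.55 in ES in 4HT. Its differences were 1.20 in EtOH and 0.95 in 4HT. For Soga3, also in a sparse bin (10 TSS windows), the levels were 2.61 in LS and 1.15 in ES in EtOH, and 1.89 in LS and 1.18 in ES in 4HT. Efcab14 stood at 3.001 in LS and 1.36 in ES in EtOH, and at 2.49 in LS and 1.55 in ES in 4HT. At each of these 3 genes both LS values were above both ES values.

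The 250 bases before the start of these 3 genes are printed because they lie at the centre of the windows that differed in both treatments. They come from RefSeq (GRCm38.p6), read 5′ to 3′ on the gene's strand, with each CG dinucleotide in capitals.
Arrdc4 promoter, chr7:68749239-68749488, strand -: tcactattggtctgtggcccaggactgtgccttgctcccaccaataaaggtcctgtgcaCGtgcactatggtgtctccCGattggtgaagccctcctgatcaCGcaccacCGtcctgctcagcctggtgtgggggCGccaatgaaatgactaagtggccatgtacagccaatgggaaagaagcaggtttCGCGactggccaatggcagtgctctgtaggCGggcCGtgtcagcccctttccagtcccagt
Soga3 promoter, chr10:29143746-29143995, strand +: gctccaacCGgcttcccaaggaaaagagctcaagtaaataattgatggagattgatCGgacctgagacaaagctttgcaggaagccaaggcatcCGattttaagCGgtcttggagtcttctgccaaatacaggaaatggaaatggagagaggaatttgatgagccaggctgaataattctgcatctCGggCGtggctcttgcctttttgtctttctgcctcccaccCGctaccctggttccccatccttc
Efcab14 promoter, chr4:115737520-115737769, strand +: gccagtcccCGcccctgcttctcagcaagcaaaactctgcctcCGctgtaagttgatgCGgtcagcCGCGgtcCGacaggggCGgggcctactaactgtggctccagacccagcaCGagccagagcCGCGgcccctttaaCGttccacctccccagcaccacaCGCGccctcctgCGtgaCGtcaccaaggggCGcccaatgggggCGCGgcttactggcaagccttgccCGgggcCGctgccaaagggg
They hold 9, 7 and 20 CG dinucleotides, where the median over all 32851 RefSeq promoter entries of this length was 6. The compared windows were richer in CG. Cut into 3 near-equal classes, their lowest class ran from 0 to 12, which holds the counts of Arrdc4 and Soga3. The middle class ran from 13 to 20, which holds that of Efcab14. Deposited regions overlapping these bases, which share reads with the windows, gave the same direction. The region over the Arrdc4 promoter (chr7:68748462-68749917) was at 5.60 in LS and 2.66 in ES in EtOH, and at 5.47 in LS and 2.02 in ES in 4HT. Its G1 and G2 columns were at 6.60 and 6.84 in EtOH, above LS, and at 3.40 and 4.42 in 4HT, below LS. ES was thus the lowest fraction of this region in each treatment, and LS the highest in 4HT only. The one over the Efcab14 promoter (chr4:115737361-115738175) was at 4.89 in LS and 1.997 in ES in EtOH, and at 6.07 in LS and 2.54 in ES in 4HT. Soga3 had 2 short regions there, and the first (chr10:29143537-29143773) was at 3.53 in LS and at the 1-read value of 1.0 in ES in EtOH, and at 3.02 in LS and 1.0 in ES in 4HT. The second (chr10:29143950-29144213) was at 1.98 in LS and 1.15 in ES in EtOH. In 4HT it was at 2.53 in LS and 1.82 in ES, a difference of 0.48 and so below 1.5-fold. Neither Soga3 region met the level minimum of the compared regions.

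The other 9 named windows of this side were less steady. Rnft1, a RING finger membrane protein gene with the largest difference of all (1.33), had 3.78 in LS and 1.51 in ES in EtOH, but 2.53 in LS and 2.32 in ES in 4HT. Aagab, whose product helps assemble clathrin adaptor complexes, had 3.64 in LS and 1.47 in ES in EtOH, and 2.52 in LS and 2.07 in ES in 4HT. A window shared by the histone genes H2ac6 and H2bc4 had 3.63 in LS and 1.55 in ES in EtOH, and 1.75 in LS and 1.31 in ES in 4HT. Mylip, a ubiquitin ligase that lowers the LDL receptor, Snx2, a sorting nexin, and Rfx1, a transcription factor of the RFX family, had differences of 1.15, 1.19 and 1.14 in EtOH and of 0.05, 0.44 and 0.30 in 4HT. Nlk, the Nemo-like kinase, Tarsl2, a threonyl-tRNA synthetase gene, and Fam98a were on the other side of 0 in 4HT, at -0.43, -0.06 and -0.13. Of the 12 windows, EtOH LS was the highest of all 8 columns in 10 and EtOH ES the lowest of all 8 in 6.

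**Figure D4:**
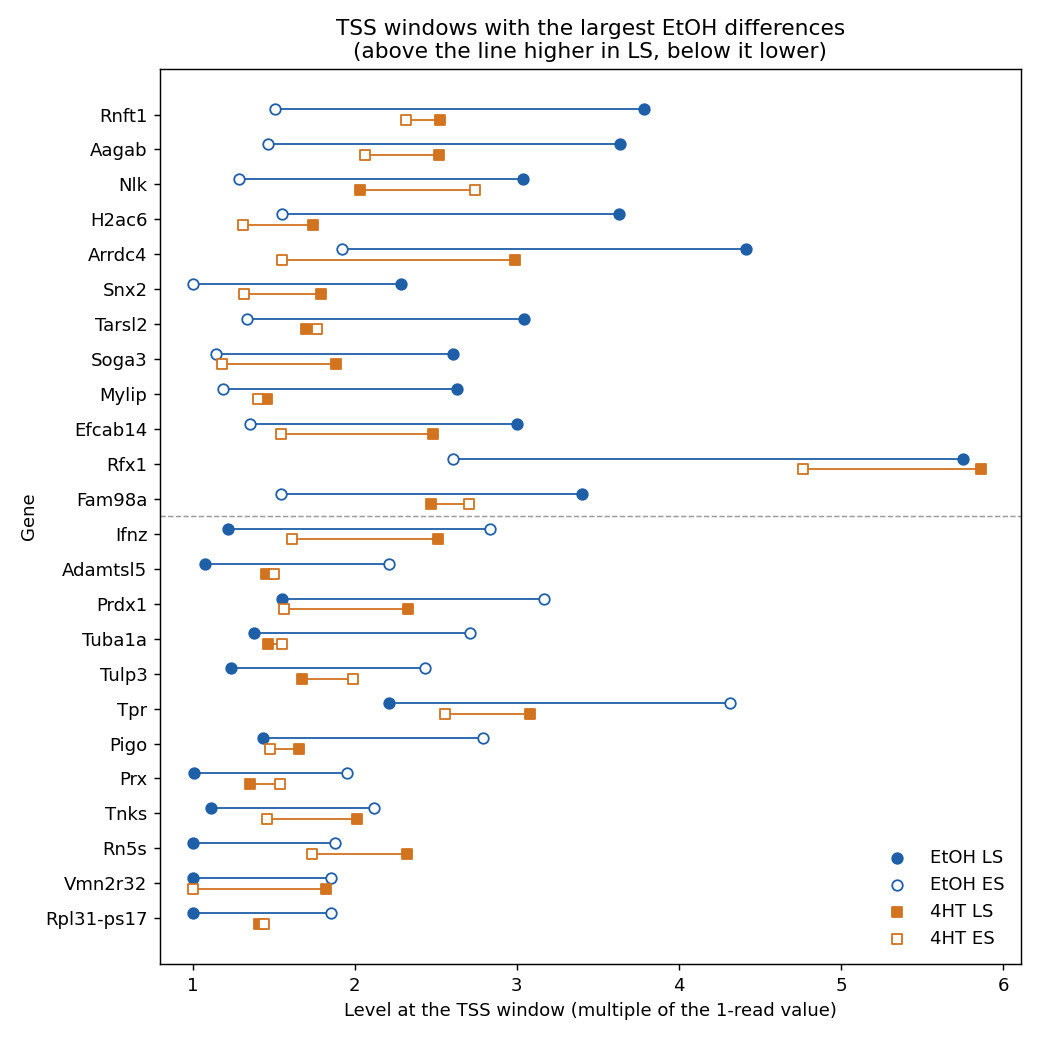
Levels (x axis, multiples of the 1-read value) at the 12 TSS windows with the largest excess in EtOH LS (above the dashed line) and the 12 with the largest deficit (below it), with filled symbols for LS and open symbols for ES, circles for EtOH and squares for 4HT. The blue lines are long by choice of the windows; the 4HT pairs are shorter, and 3 of the 12 upper windows and none of the 12 lower ones were past 1.5-fold the same way.

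On the other side, the 12 named windows with the largest deficit in LS ran from -1.22 to -0.89 in EtOH, and 5 of them were below 0 in 4HT (34.1% of all compared windows), 0 of them past the fold. Prdx1, the gene of the antioxidant enzyme peroxiredoxin, had 1.55 in LS and 3.17 in ES in EtOH, but 2.33 in LS and 1.56 in ES in 4HT. Tpr, a protein of the nuclear pore basket, had 2.22 in LS and 4.32 in ES in EtOH, and 3.08 in LS and 2.56 in ES in 4HT. For both genes LS was the lower column in EtOH and the higher one in 4HT. Tulp3, a ciliary trafficking gene, kept its direction, with 1.24 in LS and 2.43 in ES in EtOH and 1.68 in LS and 1.99 in ES in 4HT. Tuba1a, an alpha-tubulin gene, had -0.97 in EtOH and -0.09 in 4HT. Adamtsl5, an ADAMTS-like gene, had -1.04 and -0.05, and Prx, which encodes the myelin protein periaxin, -0.95 and -0.19. Pigo, of GPI anchor synthesis, and Tnks, the tankyrase gene, had -0.96 and -0.93 in EtOH and 0.16 and 0.46 in 4HT. Ifnz, an interferon gene, Rn5s, a 5S ribosomal RNA gene, Vmn2r32, a vomeronasal receptor gene, and the pseudogene Rpl31-ps17 belong to families of near-identical copies, where the counting could split reads. In the last 3 the EtOH LS column was at the 1-read value of 1.0.

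The 3 largest of these deficits are shown in the same form, since their starts bear the lowest LS values relative to ES.
Ifnz promoter, chr4:88781881-88782130, strand +: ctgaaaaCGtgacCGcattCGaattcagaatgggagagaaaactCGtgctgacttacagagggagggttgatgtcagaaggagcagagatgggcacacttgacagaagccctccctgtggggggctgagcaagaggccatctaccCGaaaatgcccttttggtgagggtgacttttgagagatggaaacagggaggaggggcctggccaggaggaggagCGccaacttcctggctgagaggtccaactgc
Adamtsl5 promoter, chr10:80348449-80348698, strand -: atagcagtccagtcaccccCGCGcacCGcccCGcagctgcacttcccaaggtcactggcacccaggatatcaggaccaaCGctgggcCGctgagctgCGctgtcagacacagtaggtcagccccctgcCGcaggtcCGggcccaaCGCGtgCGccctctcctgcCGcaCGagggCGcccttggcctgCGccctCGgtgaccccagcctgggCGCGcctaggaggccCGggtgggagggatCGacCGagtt
Prdx1 promoter, chr4:116685349-116685598, strand +: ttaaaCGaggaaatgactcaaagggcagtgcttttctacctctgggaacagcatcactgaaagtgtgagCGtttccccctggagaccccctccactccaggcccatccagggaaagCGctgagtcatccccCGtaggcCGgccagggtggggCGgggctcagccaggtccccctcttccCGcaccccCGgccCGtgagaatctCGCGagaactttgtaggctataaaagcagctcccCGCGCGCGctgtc
These hold 6, 22 and 15 CG dinucleotides, so the counts of the 2 sides overlapped. The deposited region over the Prdx1 promoter (chr4:116685193-116686117) was at 2.28 in LS and 5.14 in ES in EtOH, and at 3.96 in LS and 2.10 in ES in 4HT, the same reversal as at its window. The Adamtsl5 promoter region (chr10:80348310-80348663) was at 1.0 in LS and 2.68 in ES in EtOH, and at 1.20 in LS and 1.78 in ES in 4HT. It held no read in 4HT G1 and was not among the compared regions. No deposited region overlapped the bases shown for Ifnz. Over the 9660 compared windows with a promoter entry, the median difference in EtOH was -0.00 in the class with the fewest CG dinucleotides (of 3 near-equal classes), 0.04 in the middle one and 0.06 in the one with the most. The 4HT medians were 0.10, 0.15 and 0.17. Level and gene density moved with the classes: the median level was 1.47, 1.62 and 1.62, and the median number of TSS windows in the 1 Mb bin was 29.0, 27.0 and 22.0.

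Among single accessible regions, the 8 largest excesses in EtOH LS ran from 2.24 to 2.97 and the 8 largest deficits from -2.54 to -2.17. In 5 of the 8 highest the ES column was at the 1-read value, the floor of the scale, where levels are coarse. The largest, a 141 bp region 15467 bp from Osbp, an oxysterol-binding protein gene (chr19:12009581-12009721), had 7.84 in LS and 1.0 in ES in EtOH, and 3.45 in LS and 4.02 in ES in 4HT. A region within Rsf1, a chromatin remodelling factor gene (chr7:97590517-97590825), had 5.67 in LS and 1.0 in ES in EtOH, and 6.91 in LS and 2.91 in ES in 4HT. One within the zinc finger gene Zfp993 (chr4:146740843-146740954) had 5.75 in LS and 1.0 in ES in EtOH, and 2.16 in LS and 1.0 in ES in 4HT. The last 2 kept their direction, and of the 8, 4 were past the fold in 4HT, against 35.6% of all regions.

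The region with the largest deficit lay 6322 bp from Mllt6 (chr11:97656456-97656800), with 1.01 in LS and 5.88 in ES in EtOH and 1.63 in LS and 2.88 in ES in 4HT. A region within Icam5, the gene of a neuronal cell adhesion molecule (chr9:21033339-21033462), had 1.0 in LS and 4.72 in ES in EtOH, and 1.89 in LS and 4.33 in ES in 4HT. In these 2 both LS columns were below both ES columns. A region within Duxf3, a double homeobox gene of the 2-cell embryo that lies in a repeat array, had 1.29 in LS and 6.83 in ES in EtOH, and 4.92 in LS and 5.20 in ES in 4HT. Of the 8 deficits, 2 were past the fold in 4HT, against 7.49% of all regions.

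To use both treatments at once, LS was tested against ES with limma in an additive model of treatment and fraction over the 8 pooled columns, with Benjamini-Hochberg adjustment over all compared intervals. With 3 residual degrees of freedom, its p-values measure the spread among pooled columns and not among cultures. The levels entered the model uncorrected for depth. In this test 5 regions were higher in LS (0.0454% of those compared) and 0 were lower (0.0%), and 712 regions had an unadjusted p under 0.05, where 550.5 would by chance. At windows 1 was higher and 1 lower (0.00653% each), and 767 had an unadjusted p under 0.05, where 766.15 would by chance. In simulated data of this design the test missed every planted region change, so a low count at regions does not show that regions were alike.

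The 5 regions had higher levels in LS than in ES by 2.12 to 2.28 on the log2 scale. One lies in Pagr1a, a gene of a histone methyltransferase complex (chr7:127016898-127017469), with 4.88 in LS and 1.11 in ES in EtOH and 4.54 in LS and 1.0 in ES in 4HT (log2 difference 2.16, SE 0.50, limma adjusted p = 0.0392). Its G1 and G2 columns were at 3.99 and 5.56 in EtOH and at 2.49 and 2.73 in 4HT, so ES stood below every other fraction. A region 6085 bp from Pex7, a peroxisomal import receptor gene (chr10:19913759-19914242), had 5.37 in LS and 1.69 in ES in EtOH and 7.44 in LS and 1.0 in ES in 4HT (2.28, SE 0.48, limma adjusted p = 0.0201). Another, 66359 bp from Grid1, a glutamate receptor gene (chr14:35649746-35649891), had 6.63 in LS and 1.75 in ES in EtOH and 6.97 in LS and 1.22 in ES in 4HT (2.22, SE 0.48, limma adjusted p = 0.0201). The other 2 lie 145482 bp from Arglu1 on chromosome 8 and 44167 bp from the predicted gene Gm32719 on chromosome 12, with limma adjusted p = 0.0392 and 0.0390. Of the 5, 4 were in bins with at most 10 TSS windows, and the Pagr1a region was in a bin with 67. In all 5 at least one ES column was at 1.22 or below, so the folds rest on values near the 1-read floor. None of the 5 was called without the G2 columns.

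The window that was higher is that of the predicted gene Gm10476 (chr12:22464657-22469656), at 1.99 in LS and 1.0 in ES in EtOH and 2.38 in LS and 1.0 in ES in 4HT (log2 difference 1.12, SE 0.21, limma adjusted p = 0.00231). The lower one has no gene name here (chr14:6872806-6877805). It was at 1.0 in LS and 1.40 in ES in EtOH, and at 1.0 in LS and 2.88 in ES in 4HT (-1.01, SE 0.22, limma adjusted p = 0.0237). In both windows the lower fraction was at the 1-read value of 1.0, the floor of the scale, in each treatment.

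Gene lists were read at their TSS windows against the 12772 compared windows with a gene name, of which 53.9% were above 0 in EtOH with a median difference of 0.03, and 66.6% in 4HT with a median of 0.13. Without the level filter, 27085 named windows were read in both EtOH columns, of which 13362 were above 0 and 12194 below, with a median of 0.0. The medians of the lists with at least 5 compared windows lay between -0.21 and 0.25. Among cell cycle genes, the DNA replication list had a median of 0.03, with 33 of 55 windows above 0. Its extremes were Pola1, the catalytic subunit of DNA polymerase alpha, at 0.75 (1.81 in LS and 1.08 in ES), and Mcm2, a subunit of the replicative helicase, at 0.52, against Pcna, the sliding clamp, at -0.68 (2.16 in LS and 3.46 in ES) and Tyms, thymidylate synthase, at -0.58. In 4HT these 4 were at 0.20, -0.14, -0.17 and 0.37. One member was higher by 1.5-fold and 1 lower, against 3.9% and 1.81% of all windows.

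Replication-dependent histone genes, which are transcribed in S phase, had a median of 0.06 in EtOH with 27 of 43 windows above 0, and one of 0.32 in 4HT with 36 of 43 above 0, where all named windows had medians of 0.03 and 0.13. Only the window of H2ac6 and H2bc4 was past the fold in EtOH. H3c6 was at 0.58, with 1.70 in LS and 1.14 in ES, while H1f2, a linker histone gene, was at -0.46, with 2.02 in LS and 2.78 in ES. These genes lie in clusters and are near-identical, so reads could be split among them.

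G1 to S genes had a median of 0.01 (13 of 26 above 0), with the repressor gene E2f7 at 0.89 and the phosphatase gene Cdc25a at 0.63 in EtOH, and at -0.00 and 0.08 in 4HT. G2 and mitosis genes had a median of 0.08 (20 of 38 above 0). Cdc20 and Bub1, of the spindle checkpoint, were at 0.65 and 0.64, and Birc5, a subunit of the chromosomal passenger complex, and the kinase gene Nek2 at -0.76 and -0.61. In 4HT those 4 were at 0.07, -0.24, 0.23 and 0.44. Thus 1 of the 4 largest, Cdc20, stayed on its side of 0, and these 4, E2f7 and Cdc25a each had a limma adjusted p = 0.998.

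Naive pluripotency genes had a median of 0.05, with 10 of 19 above 0. Pou5f1 was at 0.68, with 3.33 in LS and 2.07 in ES, and at 0.37 in 4HT, with 3.09 in LS and 2.38 in ES. Klf2, a Kruppel-like factor of the naive state, was at 0.65 in EtOH and 0.23 in 4HT. Both genes were thus on the LS side in each treatment, below the 1.5-fold line in 4HT. Dppa3, a germline and preimplantation factor, was at -0.80, with 1.11 in LS and 1.93 in ES, and at 0.04 in 4HT. The list of formative and primed genes centred on 0.01.

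Lists of lineage genes were small after filtering. Mesendoderm genes had the highest median, 0.25 in EtOH with 9 of 13 above 0 and 0.23 in 4HT with 13 of 13 above 0 (66.6% of all named windows in 4HT), led by Mixl1 at 0.41 and the endoderm factor Foxa2 at 0.33. Their lowest member was Cdx1, a caudal homeobox gene, at -0.41. None was past 1.5-fold in EtOH. Primitive endoderm genes were at 0.19 (4 of 5 above 0), led by the collagen genes Col4a1 and Col4a2, which share a window, at 0.45 and by the laminin gene Lamc1 at 0.30. Neuroectoderm genes were at 0.10, with 7 of 8 above 0. Neural crest genes were at -0.09, with 4 of 8 above 0 and Msx1, a homeobox gene, past the fold at 0.68. Trophectoderm genes were at 0.01 (4 of 7 above 0), fibroblast genes at 0.13 (3 of 4) and keratin genes at 0.14 (5 of 5). Over the 97 keratin windows read in both EtOH columns, however, 31 were above 0 and 45 below, with a median of 0.0.

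Hox genes, the body-axis regulators kept silent by Polycomb in stem cells, had the lowest median. In EtOH it was -0.21, with 1 of 7 compared windows above 0, and in 4HT 0.08, with 4 of 7 above 0. Over all 24 Hox windows, which all held a read in both EtOH columns, 6 were above 0 and 18 below, with a median of -0.16. The one above 0 among the compared was Hoxc13, at 2.40 in LS and 1.99 in ES, and the lowest was Hoxc6 at -0.52, with 1.11 in LS and 1.60 in ES. Genes active in cells like those of the 2-cell embryo were at -0.12, with 4 of 13 above 0, and at 0.20 in 4HT. All named windows compared were at 0.03 in EtOH and 0.13 in 4HT. The Hox median was below these in both treatments, and that of the 2-cell genes below in EtOH and above in 4HT. In 4HT this depended on the level filter. Over windows read in both fractions, with no filter, all named windows were at 0.0 in EtOH and 0.08 in 4HT. Hox genes were then at -0.16 and 0.17, and 2-cell genes at -0.01 in each. Hox genes were thus above the background in 4HT, and 2-cell genes below it. The EtOH deficits also depended on position. With the 1 Mb bin median removed, the Hox median less that of all named windows moved from -0.24 to -0.07. That of the 2-cell genes moved from -0.15 to 0.0. Hoxc13 and Hoxc6 lie close together on chromosome 15.

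Ribosomal protein genes were at 0.10, with 49 of 78 above 0, and at 0.15 in 4HT, with 52 of 78. Rpl34 stood at 0.66 (1.65 in LS and 1.05 in ES), and Rps25, which shares its window with Trappc4, at -0.55. Proteasome genes were at 0.06 with 24 of 38 above 0, and held 3 members higher by 1.5-fold and 1 lower (3.9% and 1.81% of all windows). Psma5, of the catalytic core, was at 0.89, with 2.31 in LS and 1.24 in ES, and Psmb9, an immunoproteasome subunit gene sharing its window with Tap1, at 1.04, with 2.52 in LS and 1.23 in ES. In 4HT they were at 0.49 and 0.39, on the same side. The p53 response list was at -0.02, where Sesn1, a stress-induced sestrin gene, was at 0.53 in EtOH and 0.70 in 4HT.

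Of the families that form large gene clusters, the receptor genes were mostly below the level filter and the zinc finger genes mostly above it. Of 1037 olfactory receptor windows 23 were compared, with a median of 0.08. Over the 1028 that held a read in both EtOH columns, 531 were above 0 and 410 below, with a median of 0.01. Vomeronasal receptor genes had 141 above 0 and 93 below of 261 windows read in both, and 15 windows read in LS only against 10 in ES only. All named windows had 13362 above 0 and 12194 below of 27085 read in both, and 249 read in LS only against 223 in ES only. Zinc finger genes were close to the background at 0.03, with 138 of 253 above 0, 11 higher by the fold and 3 lower, near the shares of all windows (3.9% and 1.81%). No clustered protocadherin window passed the level filter.

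**Figure D5:**
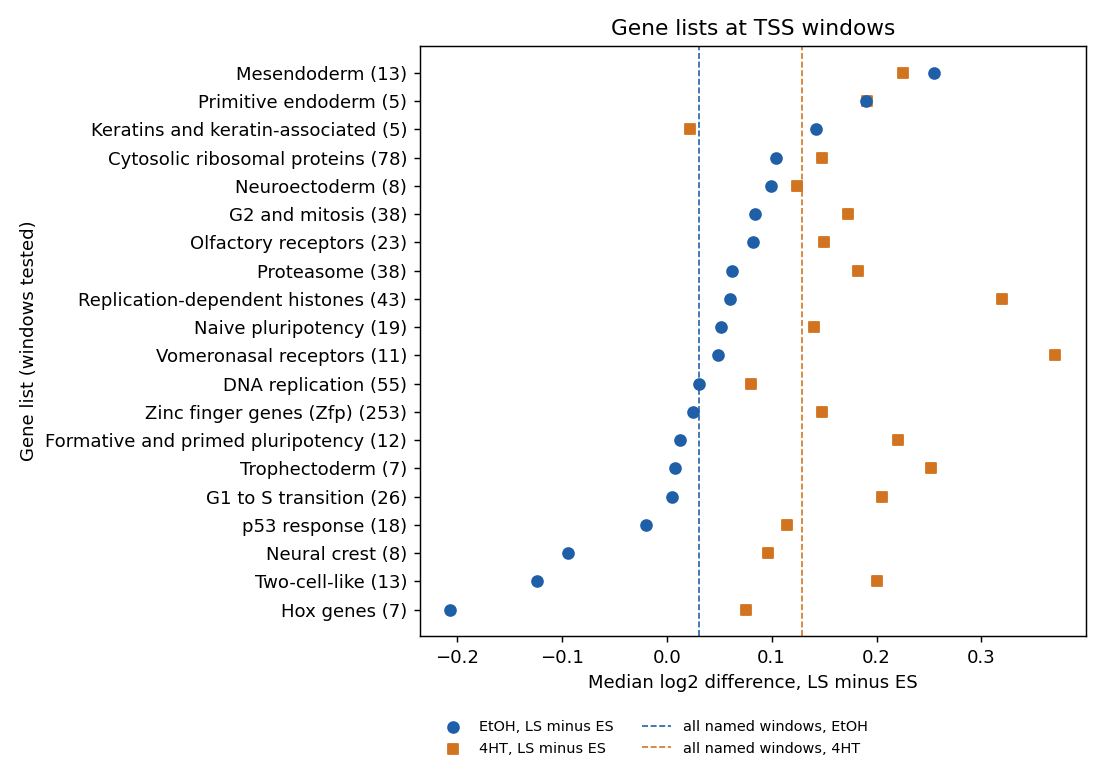
Median log2 difference, LS minus ES (x axis), of each gene list with at least 5 compared windows (y axis, number of windows in brackets), for EtOH (circles) and 4HT (squares), with dashed lines at the medians of all named windows. Mesendoderm genes are the highest EtOH point at 0.25 and Hox genes the lowest at -0.21; most lists lie close to the EtOH line at 0.03.

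At the scale of 1 Mb, 822 bins held at least 5 compared regions, and 590 of them had a median difference above 0 in EtOH (SD over bins 0.29). The highest was on chromosome 9, between 19 and 20 Mb, an olfactory receptor cluster with a median of 1.88 over 5 regions, where 4HT gave 0.46. The bin at 8 to 9 Mb on chromosome 4, which holds the chromatin remodeller gene Chd7, was at 1.09 with 5 of 5 regions above 0, and at 0.21 in 4HT. On chromosome 10, between 130 and 131 Mb, a bin with the neuronal factor gene Neurod4 and olfactory and vomeronasal receptor genes was at 1.06 in EtOH and 0.96 in 4HT. All of the 5 highest EtOH bins were above 0 in 4HT, as were 91.5% of the 822 bins.

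The lowest bin, on chromosome 5 between 88 and 89 Mb, holds enamel and salivary protein genes such as Ambn and Enam and was at -0.88 in EtOH and -0.04 in 4HT. One on chromosome 4, between 144 and 145 Mb, with the oocyte and embryo gene families Pramel and Oog, was at -0.68 in EtOH and -0.29 in 4HT. Of the 5 lowest bins, these 2 were below 0 in 4HT and the other 3 were above. Across the 816 autosomal bins the EtOH and 4HT medians had a Pearson r of 0.18, and in bins of 5 Mb the r was 0.16. At TSS windows r was 0.19 over 994 bins of 1 Mb and 0.32 over 454 bins of 5 Mb. These are descriptions over bins of the same columns.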

How the data were processed

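ATAC-seq coverage was analysed at 127646 accessible regions and 38053 distinct TSS windows (38087 lines). Per the file headers and names, the deposited values are signal, coverage scaled to library size by the authors, with the 2 libraries of a group in 1 column that carries no replicate number. The values behave as a mean over covered bases, so reads side by side in an interval do not add. The build mm10 and the tools featureCounts and DESeq2 are named in the submitters' processing notes without a role or version; the aligner is not given in the sources used here. 0 value columns were left unmapped.

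Each column was divided by its smallest value, taken as 1 read. A missing value was read as no read. The difference is log2 of the LS multiple over the ES multiple, with no pseudocount and no centring. Levels and differences at few reads are coarse, and no interval can be given for a single value. limma (3.58.1, R 4.3.3) was run with trend and robust moderation; tested on simulated data, it missed every planted region change, most of the smaller window changes and some of the larger, so few calls at regions say little about how many differ. Tables were made with Python 3.11.15.

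Windows were named from RefSeq genes (GRCm38.p6) starting at most 500 bp from a point 150 bp off the window's centre, by strand (100 bp where strand was unknown), giving 28184 named windows. Distances are from a region's midpoint to the nearest window centre. Named loci are the 12 windows and 8 regions with the largest difference each way in EtOH, passing over predicted genes and overlapping windows, the 2 highest and 2 lowest members of a list, and the 5 highest and lowest bins. The promoters shown are those past 1.5-fold in both treatments among the 12, and the 3 largest deficits. The members, classes and 22 gene lists were chosen with earlier results of these data known.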

Additional observations from a re-analysis of the deposited data

Results flagged for a closer look

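At 5 loci the LS to ES difference was past 1.5-fold in opposite directions in the 2 treatments; the difference between treatments was not tested, and each treatment has 1 pooled value per fraction. The Ifnz window was at -1.22 in EtOH and 0.64 in 4HT, and the Vmn2r32 window at -0.89 in EtOH and 0.87 in 4HT. Both genes belong to families with close copies. The region at chr12:87405856-87406048 was at -2.32 in EtOH and 1.21 in 4HT. One within Wrap53, a telomerase-associated gene (chr11:69579135-69579501), was at -2.22 in EtOH and 1.33 in 4HT, and one within Denn2b (chr7:109702729-109703069) at -2.17 in EtOH and 1.11 in 4HT. All 5 are deficits in EtOH LS. Over all compared regions 461 were lower in EtOH LS and higher in 4HT LS by the fold and 210 the reverse, against 1134 higher in both and 156 lower in both; at windows these counts were 14, 2, 80 and 5.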

How the results depend on the processing

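No paired analysis was possible because the columns pool both libraries and carry no replicate number. The gene-density difference at regions (gene-poor minus gene-rich, 0.17) was 0.13 to 0.19 with cyclic loess, signal as deposited or 5 Mb bins, the last 2 chosen after seeing the data; at windows it was 0.09, and 0.06 to 0.09 under these. Without the level filter it was 0.0 at regions and 0.005 at windows, while the mean over regions read in both columns was 0.08 in the poorest and 0.0009 in the densest bins. Regions higher in LS (2796) numbered 1663 with a pseudocount of 1, 12087 without the filter, 903 at a higher minimum, 1666 with the 1 Mb bin median removed and 1131 at 2-fold. Regions lower (1445) numbered 751 on the signal as deposited, 736 with the pseudocount, 9914 without the filter, 306 at the higher minimum and 510 at 2-fold. The region median (0.17) was -0.001 with loess and 0.0 without the filter. Windows higher (597) numbered 154 as deposited, 85 with the pseudocount, 229 at the higher minimum and 32 at 2-fold, and windows lower (278) 17, 15, 46 and 6, with 446 without the filter; the window median was 0.15 at the higher minimum. In limma, regions higher (5) numbered 34 with the ES and LS columns alone and 0 without G2, with loess, as deposited, without the filter or without moderation; regions lower (0) numbered 2 with ES and LS alone and 1 with loess. Windows higher (1) numbered 8 with ES and LS alone, 2 without G2, 0 as deposited and 2 without the filter, and windows lower (1) 3, 2 and 0 for the first 3, and 0 without G1, with loess or without moderation. Regions within 1 kb (0.16) were at 0.0035 without the filter and -0.0172 with loess, and those beyond 100 kb (0.40) at 0.0 and 0.25. The cause was not tested. The region median and the value within 1 kb thus changed sign with loess. Taken less that of all named windows, 11 list medians did so under one setting or another, with 13 sign changes among them. One was neural crest (-0.13), at 0.01 without the filter. No named locus changed sign; 12 of their values dropped below 1.5-fold, 10 of them deficits under the pseudocount or the deposited scale, and Soga3 (0.57) and Tpr (-0.41) with the bin median removed.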

Other observations

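Chromosome 8 stood apart in how many of its intervals could be compared: 12.99% of its 8862 regions and 65.5% of its 1674 windows passed the level filter, against 8.63% and 40.3% of all, while on chromosome X 3.99% and 8.83% passed. Its difference between LS and ES did not stand apart, at 0.14 in EtOH and 0.31 in 4HT at regions.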
